A study of Mus musculus with 6 samples.

Results

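The mitochondrial respiratory chain was examined by RNA-seq of whole testis, taken at an age of 21 days from 3 WT mice and 3 mice lacking Trf2 (Trf2-/-). Its genes were taken from the deposited table of counts by name, as the protein-coding genes whose symbols begin with Nduf followed by a, b, c, s or v, with Cox followed by a digit from 4 to 8, with Atp5 or with Uqcr, together with Sdha, Sdhb, Sdhc, Sdhd and the cytochrome c genes Cycs and Cyct. This gave 92 of the 26743 genes in the table. The rule used no measured value. Of the 92 genes, 75 were grouped as general subunits of complexes I to IV, the ATP synthase and cytochrome c, 4 as testis isoforms, 5 as isoforms of lung, heart or muscle and Ndufa4l2, and 4 as complex I assembly factors named Ndufaf. The remaining 4, Atp5s, Atp5sl, Cox7a2l and Cox4nb, carry names that the rule takes but are not known as respiratory chain subunits.

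The Trf2-/- mice carry an inactivated gene for Trf2, a TBP-related transcription factor of the testis, in every cell of the body. The age of 21 days is when the first wave of spermatogenesis reaches round spermatids. Each genotype is represented by 3 independent biological replicates, and the labels give no strain for these 6 mice, while the study's methods name a 129/SvPas background in the account of its tagged mice. Total RNA was depleted of ribosomal RNA and sequenced as strand-marked libraries of 50-base single reads. Because the RNA came from whole testis, fewer cells of a type and less RNA per cell cannot be told apart in any of the values.

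As background, the respiratory chain passes electrons from NADH through complex I, or from succinate through complex II, to ubiquinone, then through complex III and cytochrome c to complex IV, where oxygen is reduced. The protons moved on the way drive the ATP synthase. Most subunits are encoded in the nucleus and are used in every tissue, but male germ cells also express their own isoforms. Cyct encodes a testis form of cytochrome c, and Cox6b2, Cox7b2 and Cox8c encode testis forms of the complex IV subunits otherwise made from Cox6b1, Cox7b and Cox8a.

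Counts on genes ran from 21582123 to 29859347 in the WT mice and from 15187062 to 24530489 in the Trf2-/- mice, of which Trf2-/- mouse 3 had the fewest. The inactivated gene, listed as Tbpl1, was counted 8840, 7391 and 6119 times in WT and 1586, 1500 and 882 times in Trf2-/- testis, a level of 20.7% of WT. Respiratory chain genes took between 0.816% and 0.864% of the counts in each mouse. The filter on low counts left 89 of the 92 for testing. Differences were tested across all 16924 genes that passed with edgeR's quasi-likelihood test, and a gene passed when its Benjamini-Hochberg adjusted p over all of them was under 0.05. All adjusted p values given are from this test. Levels are in CPM, the counts relative to the TMM-scaled library size, or in RPKM, the same per kilobase of the deposited gene length, which is used when levels of different genes are compared.

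The upstream sequences of the testis isoforms and of their general partners are shown because the 2 sets of genes are read side by side below. Promoter windows from 250 bases before to 50 bases after the start site were found in RefSeq (assembly GRCm38.p6) for 73 of the 92 genes, in 78 windows. Cox8c was not among them. The 250 bases before the start site are given 5′ to 3′ on the strand of the gene, and capitals mark the motifs found by letters on either strand, namely a CCAAT box (CCAAT), a CRE half-site (TGACG), a full CRE (TGACGTCA, which contains the half-site), an NRF1 core (GCGCATGCG), an ETS core (CCGGAAG) and a TATA box (TATAAA). The region of each gene is Cyct, chr2:76360454-76360703, minus strand, then Cox6b2, chr7:4753095-4753344, minus strand, and Cox7b2, chr5:71548206-71548455, minus strand. For the general partners it is Cycs, chr6:50566570-50566819, minus strand, then Cox6b1, chr7:30626115-30626364, minus strand, Cox7b, chrX:106015450-106015699, plus strand, and Cox8a, chr19:7217617-7217866, minus strand.
Cyct: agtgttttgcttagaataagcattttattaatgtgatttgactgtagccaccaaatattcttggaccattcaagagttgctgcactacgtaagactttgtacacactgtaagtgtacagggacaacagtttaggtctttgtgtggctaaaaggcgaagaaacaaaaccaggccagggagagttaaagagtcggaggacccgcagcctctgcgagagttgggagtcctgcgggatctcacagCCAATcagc
Cox6b2: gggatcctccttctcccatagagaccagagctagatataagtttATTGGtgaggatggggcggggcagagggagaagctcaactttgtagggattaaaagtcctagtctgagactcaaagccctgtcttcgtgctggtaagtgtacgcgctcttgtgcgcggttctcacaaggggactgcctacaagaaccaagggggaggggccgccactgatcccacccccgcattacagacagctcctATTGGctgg
Cox7b2: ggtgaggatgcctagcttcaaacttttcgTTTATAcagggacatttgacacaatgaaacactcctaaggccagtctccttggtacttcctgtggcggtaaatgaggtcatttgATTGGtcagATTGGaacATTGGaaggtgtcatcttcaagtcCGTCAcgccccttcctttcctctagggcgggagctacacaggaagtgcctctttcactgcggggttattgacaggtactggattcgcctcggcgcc
Cycs: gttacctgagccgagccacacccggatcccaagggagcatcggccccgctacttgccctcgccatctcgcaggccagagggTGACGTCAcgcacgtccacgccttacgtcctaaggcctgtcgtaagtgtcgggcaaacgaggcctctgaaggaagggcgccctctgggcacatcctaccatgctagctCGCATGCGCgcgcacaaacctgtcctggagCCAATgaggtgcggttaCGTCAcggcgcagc
Cox6b1: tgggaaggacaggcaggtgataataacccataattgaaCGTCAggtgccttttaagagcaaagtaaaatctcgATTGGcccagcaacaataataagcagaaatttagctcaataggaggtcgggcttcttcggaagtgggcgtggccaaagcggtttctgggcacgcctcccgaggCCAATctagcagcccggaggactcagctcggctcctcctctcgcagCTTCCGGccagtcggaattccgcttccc
Cox7b: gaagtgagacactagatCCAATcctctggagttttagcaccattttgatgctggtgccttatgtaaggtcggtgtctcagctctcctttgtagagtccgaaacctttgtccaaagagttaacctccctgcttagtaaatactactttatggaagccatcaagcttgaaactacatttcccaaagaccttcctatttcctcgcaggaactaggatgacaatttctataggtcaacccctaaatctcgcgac
Cox8a: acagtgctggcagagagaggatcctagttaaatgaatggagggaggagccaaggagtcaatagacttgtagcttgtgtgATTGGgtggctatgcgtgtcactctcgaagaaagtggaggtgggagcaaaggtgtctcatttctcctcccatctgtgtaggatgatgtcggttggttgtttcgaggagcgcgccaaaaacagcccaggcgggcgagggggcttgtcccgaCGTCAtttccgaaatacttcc
In the full windows, the CCAAT box was present in the 3 testis isoforms and in the 4 general partners, against 44.9% of all respiratory chain windows and 37.4% of 32851 windows of all genes. The NRF1 core, the motif of a regulator of nuclear genes for mitochondrial proteins, was found for Cycs, and the ETS core, the motif of the GABP family, for Cox6b1 and Cox8a. Neither was found in the 3 testis isoform windows. Over all respiratory chain windows 12.8% held the NRF1 core and 21.8% the ETS core, against 1.75% and 8.86% of all windows. The CRE half-site was in 35.9% of the respiratory chain windows and 20.8% of all windows, and the full CRE in 6.41% and 1.79%. For the TATA box the shares were 10.3% and 13.6%. These are matches of letters in a fixed window and show no binding.

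In WT testis the testis isoforms were expressed far above their general partners. Cyct stood at 177, 193 and 184 RPKM in WT mice 1 to 3, and Cycs at 7.60, 7.81 and 7.96 RPKM. Cox7b2 stood at 356, 355 and 330.3 RPKM against 11.2, 10.3 and 9.91 RPKM for Cox7b. Cox8c stood at 380, 388 and 381 RPKM against 36.0, 40.3 and 40.6 RPKM for Cox8a. The smallest gap was that of Cox6b2, at 196, 196 and 197 RPKM, over Cox6b1, at 74.3, 85.9 and 76.7 RPKM. The deposited length equals the summed exons of the annotation for 61 of the 92 genes and for 6 of these 8. It is 3123 bases against 3404 for Cycs and 1026 against 1214 for Cox7b, and levels per length and shares of a pair depend on it, while the differences between genotypes do not. In all 4 pairs, each WT mouse had more of the testis isoform than of its partner. The testis isoform made up 95.9% ± 0.136 of the pair for cytochrome c, 71.4% ± 1.60 for Cox6b, 97.1% ± 0.120 for Cox7b and 90.8% ± 0.506 for Cox8 (SD, n = 3 mice). Cox8c, at a mean of 383 RPKM, and Cox7b2, at 347 RPKM, lay near the most abundant of the 75 general subunits, Cox4i1 at 452 RPKM and Atp5b at 416 RPKM, the catalytic subunit of the ATP synthase.

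The Trf2-/- mice kept the same order but with lower levels of 3 testis isoforms. Cox8c was at 290, 294 and 234 RPKM in Trf2-/- mice 1 to 3, Cox6b2 at 172, 167 and 152 RPKM, and Cox7b2 at 312, 313 and 275 RPKM. For these 3 genes all Trf2-/- mice lay below all WT mice. Cox8c fell to 71.3% of WT (log2 fold change -0.49, standard error 0.08, adjusted p = 0.00225), Cox6b2 to 83.3% (-0.26, standard error 0.05, adjusted p = 0.00634) and Cox7b2 to 86.5% (-0.21, standard error 0.06, adjusted p = 0.0305). Cyct was at 192, 174 and 165 RPKM in the Trf2-/- mice, which overlaps the WT mice, and its log2 fold change, -0.06 (standard error 0.06, adjusted p = 0.499), did not pass and was 0.03 when libraries were scaled by their totals alone. With each mouse left out it ran from -0.14 without Trf2-/- mouse 1 to -0.01 without Trf2-/- mouse 3. The call of Cox7b2 did not hold with scaling by library totals (-0.11, adjusted p = 0.144), nor without WT mouse 1 (adjusted p = 0.103), WT mouse 2 (adjusted p = 0.107) or Trf2-/- mouse 1 (adjusted p = 0.0532), and its adjusted p ran from 0.0186 to 0.144 over the alternatives. The call of Cox8c and that of Cox6b2 held under every alternative fit of edgeR or DESeq2 that was run, with log2 fold changes from -0.56 to -0.38 and from -0.31 to -0.17.

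**Figure D1:**
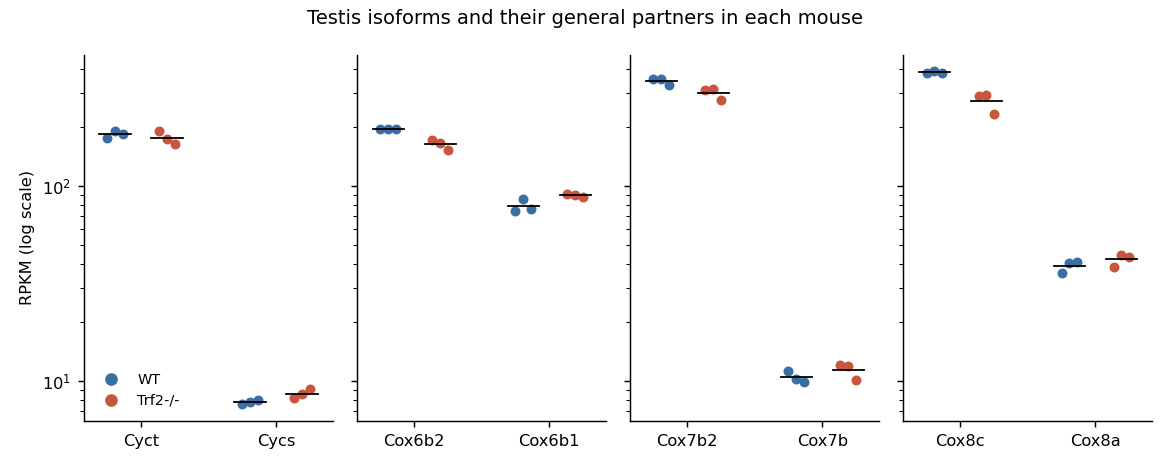
Level in RPKM (log scale) of each testis isoform and of its general partner in WT mice (blue) and Trf2-/- mice (red), 1 point per mouse, with the mean as a line. Each testis isoform lies above its partner in all 6 mice, and Cox8c, Cox6b2 and Cox7b2 lie lower in all Trf2-/- mice than in all WT mice.

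None (0) of the 4 general partners passed the test in either direction, 1 of them had an unadjusted p under 0.05, and DESeq2's Wald test also passed 0. Their log2 fold changes were 0.19 for Cox6b1 (adjusted p = 0.0613), 0.14 for Cycs (adjusted p = 0.128), 0.13 for Cox7b (adjusted p = 0.393) and 0.11 for Cox8a (adjusted p = 0.337). The Trf2-/- mice had 91.5, 89.8 and 88.4 RPKM of Cox6b1 and 8.21, 8.55 and 9.09 RPKM of Cycs, all above the WT mice. For Cox7b, at 12.1, 12.0 and 10.1 RPKM, and Cox8a, at 38.6, 44.5 and 43.3 RPKM, the genotypes overlapped. With scaling by library totals 2 partners passed as higher, beside 25.2% of all tested genes. These partners were Cox6b1 (0.28, adjusted p = 0.0126) and Cycs (0.24, adjusted p = 0.0242). Cox6b1 also passed without WT mouse 2 (0.25, adjusted p = 0.0327). When single mice were left out, Cox7b ran from 0.07 to 0.21 and Cox8a from 0.05 to 0.16.

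The ratio of a testis isoform to its partner within a mouse does not depend on how libraries are scaled. Cox8c was 10.5, 9.61 and 9.39 times as abundant as Cox8a in the WT mice and 7.50, 6.61 and 5.40 times in the Trf2-/- mice. The Cox6b2 to Cox6b1 ratio was 2.64, 2.28 and 2.57 in WT and 1.87, 1.86 and 1.72 in Trf2-/- mice, and the Cox7b2 to Cox7b ratio was 31.7, 34.5 and 33.2 in WT and 25.9, 26.1 and 27.1 in Trf2-/- mice. In these 3 pairs the genotypes did not overlap. The mean log2 ratio differed between Trf2-/- and WT mice by -0.61 for Cox8c to Cox8a, -0.46 for Cox6b2 to Cox6b1 and -0.33 for Cox7b2 to Cox7b. Each gave p = 0.1 in a two-sided exact permutation test over the 6 mice, the smallest p that 3 against 3 can give, and 0.133 adjusted over the 4 pairs, so this design cannot pass 0.05. The Cyct to Cycs ratio was 23.2, 24.6 and 23.1 in WT and 23.3, 20.3 and 18.1 in Trf2-/- mice, a difference of -0.21 with overlap between the genotypes (exact permutation p = 0.3). Without Trf2-/- mouse 3, which had the lowest Cyct to Cycs and Cox8c to Cox8a ratios of all mice, these differences were -0.12 and -0.48.

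**Figure D2:**
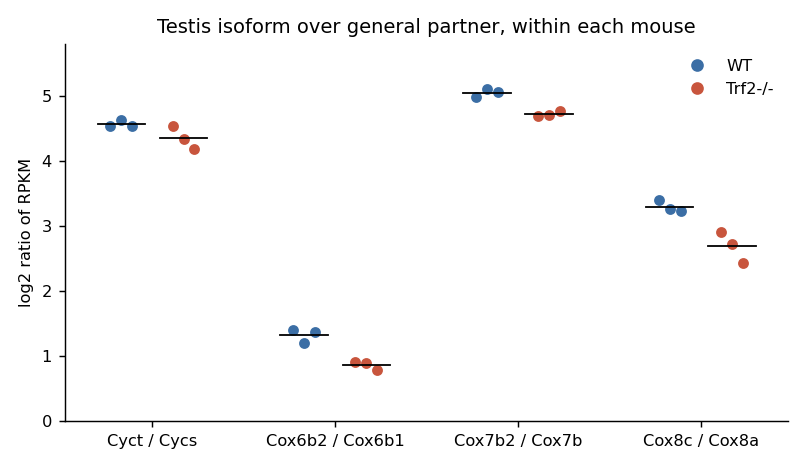
Log2 ratio of the RPKM of a testis isoform to that of its general partner within each mouse, WT in blue and Trf2-/- in red, with the mean as a line. The genotypes do not overlap for Cox6b2, Cox7b2 and Cox8c, and overlap for Cyct.

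Reads of the paired genes can be told apart. Their coding sequences share at most 14 identical bases in a row, with identity of 76.1% between Cyct and Cycs, 61.3% between Cox6b2 and Cox6b1, 63.9% between Cox7b2 and Cox7b and 40.6% between Cox8c and Cox8a, so no 50-base read from the coding part matches both exactly. Of the 50-base windows of the testis isoform transcripts, 0% occur more than once in the genome build NCBIM37. A window across a splice junction with a single copy elsewhere is not counted in this share. The share was 37.5% for Cycs, 18.4% for Cox8a, 6.51% for Cox7b and 1.97% for Cox6b1, so that reads of the general partners, and of Cycs most, could have been lost to or gained from copies elsewhere. In NCBIM37 Cyct lies at chr2:76191999-76198507, Cox6b2 at chr7:4703396-4704696 and Cox7b2 at chr5:71834063-71939444, all on the minus strand, and Cox8c at chr12:104137516-104138744 on the plus strand. None of the 4 shares exon sequence with another counted gene. Over the 92 genes the share of repeated windows was above 10% for 19 and above 50% for 2. Among genes named below it was, for example, 48.25% for Cox7a2l, 31.7% for Ndufs5, 20.2% for Uqcr11 and 13.25% for Ndufa12, so their values carry the same limit.

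Across the whole respiratory chain the differences were small. In the Trf2-/- mice 23 of the 89 tested genes were lower and 2 higher, that is 25.8% and 2.25% of them, where 20.2% of all tested genes were lower and 11.2% higher. With libraries scaled by their totals alone, 13 of the 89 genes were lower and 15 higher, where 15.9% of all tested genes were lower and 25.2% higher, and all 13 were among the 23. Past a 2-fold change, 1 gene was lower and 0 were higher, against 4.30% and 0.609% of all tested genes. The median log2 fold change of the 89 genes was -0.07, with quartiles of -0.21 and 0.02, beside 0.04 for all tested genes. Without Trf2-/- mouse 3 it was -0.04, and with scaling by library totals it was 0.02, where the median of all genes moved to 0.13. Relative to the median of all genes the respiratory chain stood at -0.11 under both scalings and at -0.06 without Trf2-/- mouse 3. A change of scaling moves all genes by nearly the same amount, so the value was bound to be alike under both scalings. Of the 89 genes, 86 (96.6%) had a log2 fold change under 0.5 in size, as did 81.9% of all tested genes. The genotypes did not overlap, with the Trf2-/- mice lower, for 39 of the 89 genes and, with the Trf2-/- mice higher, for 14, and this was so for 26.8% and 22.3% of all tested genes.

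**Figure D3:**
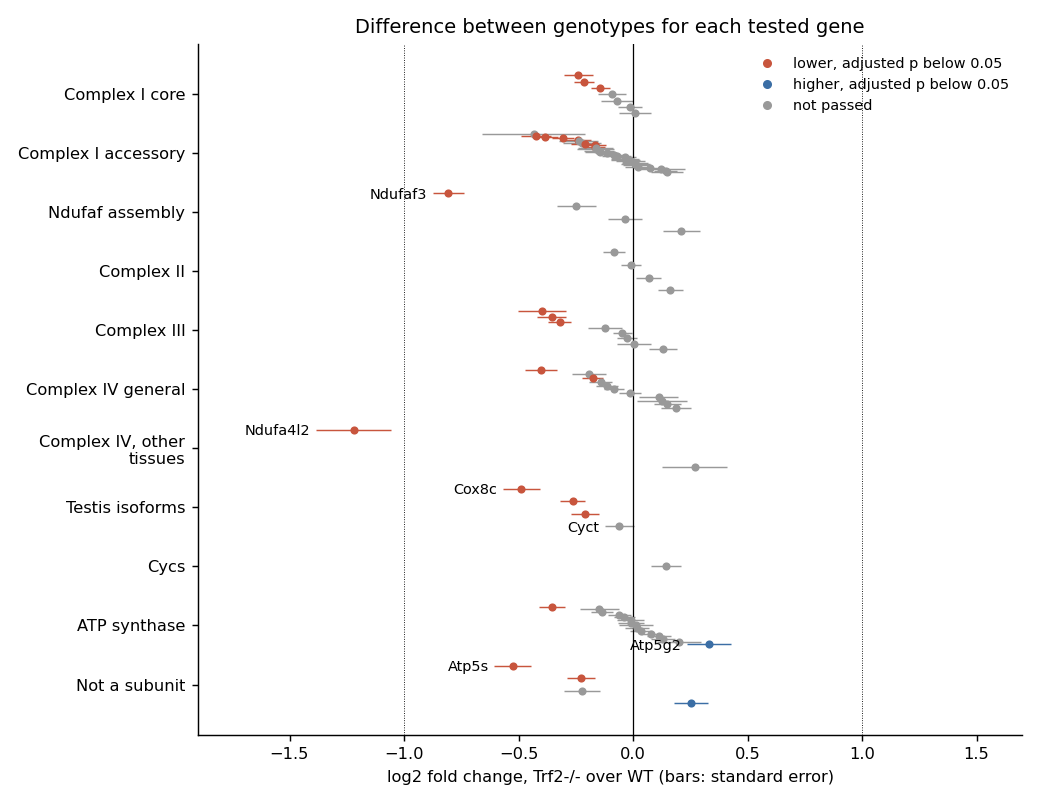
Log2 fold change of Trf2-/- over WT for each of the 89 tested genes by group, with the standard error as a bar and dotted lines at a 2-fold change. Red points passed the adjusted p as lower (23 genes) and blue points as higher (2 genes); with scaling by library totals the numbers are 13 and 15, and only Ndufa4l2 lies beyond the 2-fold line.

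Complex I is the NADH dehydrogenase and the largest complex of the chain. Of its 36 genes 10 fell (27.8%, beside 20.2% of all tested genes) and 0 rose. Scaling by library totals gave 3 lower and 2 higher, beside 15.9% and 25.2% of all tested genes. Among the 7 core subunits, which carry the redox centres, 3 fell, Ndufv2 and Ndufs1 among them. With scaling by library totals 0 of the 7 were lower and 0 higher. Ndufv2, a subunit of the module that oxidises NADH and the most abundant of the 7 per length, was at 117, 120.5 and 118 RPKM in WT and 105, 103 and 98.2 RPKM in Trf2-/- mice (log2 fold change -0.21, standard error 0.04, adjusted p = 0.00672). All Trf2-/- mice lay below all WT mice. The call of Ndufv2 did not hold with scaling by library totals (adjusted p = 0.0538). Ndufs1 shares 248 of its exon bases with Gm11602 on the opposite strand, for which the log2 fold change was 0.45 (adjusted p = 0.228). Ndufs7 had the highest log2 fold change of the core subunits, 0.01.

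Of the 29 accessory subunits of complex I, which surround the core, 7 fell (24.1%, beside 20.2% of all tested genes). Ndufa12 was at 39.3, 42.9 and 44.7 RPKM in WT and 32.1, 30.1 and 32.4 RPKM in Trf2-/- mice, 74.6% of WT (log2 fold change -0.42, standard error 0.07, adjusted p = 0.00189). Ndufa6, at 139, 133 and 135 RPKM in WT, was at 107, 107 and 97.5 RPKM in Trf2-/- mice (-0.38, adjusted p = 0.00136). For Ndufs4 the log2 fold change was -0.31 (adjusted p = 0.00215). Ndufa12, Ndufa6 and Ndufs4 were named after their values were seen. Ndufb5, also among the 7, shares 158 of its exon bases with Mrpl47 on the opposite strand, for which the log2 fold change was -0.38 (adjusted p = 0.00242). Ndufb9, the most abundant accessory subunit per length with a WT mean of 175 RPKM, fell to 89.1% of WT (adjusted p = 0.0222), a call lost without WT mouse 1 (adjusted p = 0.0604), without WT mouse 2 (adjusted p = 0.101), without Trf2-/- mouse 1 (adjusted p = 0.0502) and with scaling by library totals (adjusted p = 0.230). The lowest log2 fold change of the group, -0.43 for Ndufs5, did not pass (adjusted p = 0.172). Counts of Ndufs5 were 225, 408 and 281 in WT and 209, 213 and 157 in Trf2-/- mice, and WT mouse 1, at 9.12 RPKM, lay below the Trf2-/- mice, at 9.64 to 11.5 RPKM. Without WT mouse 1 the value was -0.68 (adjusted p = 0.0106), and without WT mouse 2 it was -0.22 (adjusted p = 0.508). The highest value of the group was 0.15 for Ndufab1, the mitochondrial acyl carrier protein (adjusted p = 0.132).

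The rule also takes 4 complex I assembly factors, of which Ndufaf3 had the lowest log2 fold change of the 89 tested genes after Ndufa4l2. Ndufaf3 acts in an early step of complex I assembly. Its counts were 6878, 5946 and 4598 in WT and 3318, 3332 and 1877 in Trf2-/- mice. Its level was 225, 214 and 207 RPKM in WT and 123.5, 134 and 111 RPKM in Trf2-/- mice, with a wide gap between the genotypes. This was 57.2% of WT (log2 fold change -0.81, standard error 0.07, adjusted p = 0.000282), and over the alternatives the value ran from -0.88 to -0.71. Ndufaf3 lies at chr9:108468197-108469673 of NCBIM37 on the minus strand and shares no exon sequence with another counted gene. Ndufaf4, another assembly factor, had a log2 fold change of 0.21 that did not pass (adjusted p = 0.0736) and passed as higher with scaling by library totals (0.30, adjusted p = 0.0168).

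For complex II, succinate dehydrogenase, 0 of 4 subunits passed in either direction with edgeR or with DESeq2's Wald test, and 1 had an unadjusted p under 0.05 in edgeR's test. Over all tested genes 20.2% were lower and 11.2% higher with edgeR's test. With scaling by library totals 2 of the 4 passed as higher, beside 25.2% of all tested genes. The log2 fold changes of the 4 subunits ran from -0.08 for Sdhb, the iron-sulfur subunit, to 0.16 for Sdhc, a membrane anchor (adjusted p = 0.0516). Sdha, the flavoprotein subunit, was at 81.6, 79.1 and 77.7 RPKM in WT and 77.8, 80.0 and 79.2 RPKM in Trf2-/- mice.

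Of 8 complex III genes, 3 fell (37.5%, beside 20.2% of all tested genes) and 0 rose, and the 3 were Uqcrq, Uqcrfs1 and Uqcrc1. With scaling by library totals 3 were lower and 1 higher, beside 15.9% and 25.2% of all tested genes. Uqcrc1, a core protein and the most abundant gene of the group per length, was at 168, 166 and 165.5 RPKM in WT and 132, 142 and 126 RPKM in Trf2-/- mice (log2 fold change -0.32, standard error 0.05, adjusted p = 0.00203). Uqcrfs1, the Rieske iron-sulfur protein, was at 78.0, 73.2 and 75.3 RPKM in WT and 61.4, 61.6 and 53.6 RPKM in Trf2-/- mice (-0.36, adjusted p = 0.00327). Uqcrq, a small subunit, was at 49.0, 46.3 and 46.9 RPKM in WT and 37.8, 40.7 and 29.1 RPKM in Trf2-/- mice (-0.40, adjusted p = 0.0206). The genotypes did not overlap for any of the 3, and the call of Uqcrq was lost with any 1 of the WT mice left out (adjusted p from 0.0540 to 0.0755). Uqcr11 had the highest value, 0.13 (adjusted p = 0.139).

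Of the 11 general subunits of complex IV, cytochrome c oxidase, Cox7a2 and Cox5a fell (18.2%, beside 20.2% of all tested genes) and 0 rose. Scaling by library totals gave 1 lower and 2 higher, beside 15.9% and 25.2% of all tested genes. Cox7a2, the general form of subunit VIIa, was at 190.4, 194 and 186 RPKM in WT and 150.3, 153 and 127.5 RPKM in Trf2-/- mice, with no overlap (log2 fold change -0.40, standard error 0.07, adjusted p = 0.00277). Cox5a shares 267 of its 690 exon bases with Gm17596 on the opposite strand, for which the log2 fold change was -0.57 (adjusted p = 0.0968). For Cox4i1, the most abundant of the 92 genes per length, the value of -0.14 did not pass (adjusted p = 0.0580), but it did without Trf2-/- mouse 2 (-0.19, adjusted p = 0.0407). The isoforms of other tissues were scarce. Cox8b had 3 counts in 1 WT mouse and 0 in the other mice, Cox6a2 at most 5 counts and Cox4i2 at most 16 counts in any mouse, and these 3 genes were not tested. Cox7a1, the heart and muscle form of VIIa, was at 14.6, 16.9 and 12.4 RPKM in WT and 18.3, 16.8 and 17.9 RPKM in Trf2-/- mice (0.27, adjusted p = 0.180).

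Ndufa4l2, a relative of the complex IV subunit gene Ndufa4 known for its induction in hypoxia, was the only one of the 89 genes past a 2-fold change. Its counts were 266, 219 and 172 in WT and 105, 95 and 43 in Trf2-/- mice, or 9.66, 8.74 and 8.60 against 4.34, 4.24 and 2.83 RPKM. All Trf2-/- mice lay below all WT mice, at 42.9% of WT (log2 fold change -1.22, standard error 0.16, adjusted p = 0.00103), and the value ran from -1.33 to -1.06 over the alternatives. The gene lies at chr10:126951995-126954208 of NCBIM37 on the plus strand, and 14 of its exon bases are shared with Shmt2 on the opposite strand, which had a log2 fold change of 0.37.

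Of 15 ATP synthase subunits, Atp5j fell and Atp5g2 rose (6.67% each), where 20.2% of all tested genes fell and 11.2% rose. With scaling by library totals 1 was lower and 5 were higher, beside 15.9% and 25.2% of all tested genes. Atp5j, coupling factor 6, was at 49.8, 50.3 and 50.7 RPKM in WT and 38.5, 42.0 and 37.3 RPKM in Trf2-/- mice (log2 fold change -0.35, standard error 0.06, adjusted p = 0.00211). It shares 397 of its exon bases with Gabpa on the opposite strand, a gene for which the log2 fold change was -0.03 (adjusted p = 0.663). Atp5g2, 1 of the genes for the c subunit of the membrane ring, was at 15.4, 14.9 and 16.4 RPKM in WT and 18.8, 19.1 and 21.0 RPKM in Trf2-/- mice (0.33, standard error 0.10, adjusted p = 0.0282). Its value is uncertain, since 100% of the 50-base windows of its transcript occur elsewhere in the genome, and its call was lost without WT mouse 1 (adjusted p = 0.0854), WT mouse 2 (adjusted p = 0.109), Trf2-/- mouse 2 (adjusted p = 0.0528) or Trf2-/- mouse 3 (adjusted p = 0.0570). Atp5b was at 413, 419 and 415 RPKM in WT and 406, 421 and 387 RPKM in Trf2-/- mice, with overlap (-0.04, adjusted p = 0.543). Among the 4 genes that are not known as subunits, Atp5s fell to 69.5% of WT (-0.53, adjusted p = 0.00178), Atp5sl, a factor of complex I assembly, had -0.23 (adjusted p = 0.0203) and Cox4nb, named for its place next to Cox4i1, had 0.25 (adjusted p = 0.0309). The call of Cox4nb was lost without WT mouse 2 (adjusted p = 0.122) or WT mouse 3 (adjusted p = 0.0795), and Cox7a2l, a factor of supercomplex assembly, had -0.22 and did not pass (adjusted p = 0.0569), except without Trf2-/- mouse 2 (-0.30, adjusted p = 0.0325).

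The testis isoforms and the general subunits can be set side by side. Of the 4 testis isoforms 3 fell and the median log2 fold change was -0.24, and of the 75 general subunits 16 (21.3%) fell and 1 rose, with a median of -0.05, where 20.2% of all tested genes fell. Without Trf2-/- mouse 3 the median of the general subunits was -0.02 and that of the testis isoforms -0.18. With scaling by library totals 2 of the 4 testis isoforms and 8 of the 75 general subunits were lower, beside 15.9% of all tested genes. With that scaling 0 and 13 were higher, beside 25.2% of all tested genes, and the medians were -0.14 and 0.05. These are descriptions of lists of very different size, with no test of their difference. Several general subunits, such as Ndufa12, Uqcrq and Cox7a2, had log2 fold changes below that of Cox6b2, so the ranges of the lists overlap. The 3 X-linked genes, Cox7b, Ndufa1 and Ndufb11, had log2 fold changes from 0.01 to 0.13, which did not pass.

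Other genes of the pathway came from lists outside the naming rule. Of 7 other subunits and partners of the chain encoded in the nucleus, Atpif1, the inhibitor of the ATP synthase, fell (-0.31, adjusted p = 0.00498) and Etfa (0.38), 2010107E04Rik (0.19) and Cyc1 (0.17), the cytochrome c1 of complex III, rose. The 3 that rose are 42.9% of the 7, beside 11.2% of all tested genes, but DESeq2's Wald test passed only 1 gene of this list as higher. Scaling by library totals gave 1 lower and 4 higher in it, beside 15.9% and 25.2% of all tested genes. Of the 13 mitochondrially encoded subunits 11 are listed and 7 were tested, and mt-Nd1, mt-Nd2 and mt-Nd6 rose, with log2 fold changes of 0.38, 0.50 and 0.55, while 0 fell. The 4 that were not tested, mt-Atp6, mt-Co2, mt-Co3 and mt-Nd3, had at most 9 counts in any mouse. By contrast, mt-Co1 had a WT mean of 2215 RPKM. The share of repeated windows is given here only for genes of the naming rule, so not for mitochondrially encoded genes. Whether the low counts reflect low levels or a loss of reads was not tested. The values of mt-Nd1, mt-Nd2 and mt-Nd6 carry the same limit. Of 23 assembly factors Cox11 fell (-0.38, adjusted p = 0.00934) and Acad9 rose (0.30, adjusted p = 0.0104), and of 14 regulators of mitochondrial biogenesis 3 fell (21.4%, beside 20.2% of all tested genes) and 0 rose. The largest change among the regulators was that of Ppargc1a, a coactivator of mitochondrial genes, at 125, 107 and 98 counts in WT and 48, 49 and 22 counts in Trf2-/- mice (-1.26, adjusted p = 0.00130). Esrra, a nuclear receptor that acts with it, had -0.43 (adjusted p = 0.0192), and Polg, the mitochondrial DNA polymerase, had -0.23 (adjusted p = 0.00668). With scaling by library totals 5 of the mitochondrially encoded subunits, 5 assembly factors and 5 regulators were higher, and the lower counts were 0, 1 and 3. With that scaling 25.2% of all tested genes were higher and 15.9% lower.

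Larger falls were found among other mitochondrial proteins of testis germ cells. Of 6 tested 5 were lower, 4 of them past 2-fold, beside 20.2% and 4.30% of all tested genes. Gk2, a testis glycerol kinase, had 13189, 11446 and 9467 counts in WT and 5799, 6002 and 2514 in Trf2-/- mice (log2 fold change -1.06, adjusted p = 0.00104), and the related Gykl1 had -1.01. Tomm20l, a testis relative of an import receptor, had 99, 84 and 94 counts in WT and 9, 9 and 3 in Trf2-/- mice (-3.49, adjusted p = 0.000208). Spata19 had 35, 48 and 22 counts in WT and 4, 10 and 1 in Trf2-/- mice (-2.55, adjusted p = 0.00391). By contrast the testis form of the pyruvate dehydrogenase subunit, Pdha2, had -0.20 (adjusted p = 0.0122) and the testis ADP/ATP carrier gene Slc25a31 had 0.06 (adjusted p = 0.375). With scaling by library totals 4 of the 6 genes were lower and 1 was higher, beside 15.9% and 25.2% of all tested genes.

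Most markers of round spermatids and pachytene spermatocytes were lower in the Trf2-/- mice, beside 20.2% of all tested genes. Of 16 tested round spermatid markers 13 were lower and 0 higher, with a summed level of 433 to 452 CPM in WT and 182 to 278 CPM in Trf2-/- mice, and 2 of the 19 listed, Lyzl1 and Lyzl6, were at 0 counts in all Trf2-/- mice. Of 12 pachytene spermatocyte markers 9 were lower and 2 higher, with a summed level of 7978 to 8440 CPM in WT and 5727 to 6654 CPM in Trf2-/- mice. Ldhc, the germ cell lactate dehydrogenase and the most abundant of them, had a log2 fold change of -0.70. Of the somatic lists, 4 of 10 Sertoli cell markers, 2 of 8 Leydig cell markers, 1 of 6 peritubular cell markers and 5 of 10 macrophage markers were higher and 0 were lower. Over all tested genes 11.2% were higher. The log2 fold changes of 2 Leydig cell markers and 1 peritubular cell marker were below 0. The summed CPM of both lists overlapped between the genotypes. Of 10 spermatogonia markers 1 was higher (0 with DESeq2's Wald test) and 0 were lower, and their summed CPM overlapped between the genotypes. With scaling by library totals 9 Sertoli cell, 2 Leydig cell, 3 peritubular cell, 7 macrophage and 3 spermatogonia markers were higher. With that scaling 25.2% of all tested genes were higher. The sums of the spermatogonia and peritubular cell markers then lay higher in all Trf2-/- mice. The testis isoforms summed to 590 to 611 CPM in WT and 527, 516 and 452 CPM in Trf2-/- mice 1 to 3. Trf2-/- mouse 3 was thus the lowest in the testis isoforms, the spermatid markers and the spermatocyte markers. The part of the cell makeup in the differences of the respiratory chain genes was not tested.

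**Figure D4:**
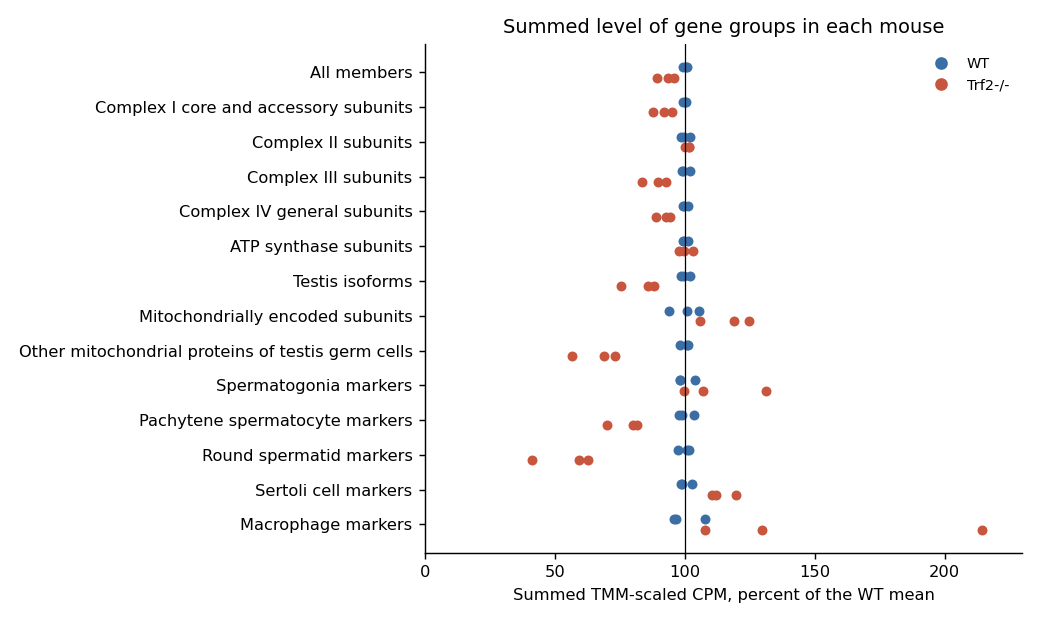
Summed TMM-scaled CPM of each gene group in each mouse, as a percent of the WT mean, WT in blue and Trf2-/- in red. The testis isoforms, the other mitochondrial proteins of testis germ cells and the markers of round spermatids and pachytene spermatocytes lie lower in all Trf2-/- mice than in all WT mice, also with scaling by library totals. All members together, complexes I and III and the general subunits of complex IV lie lower too but overlap with that scaling, while complex II and the ATP synthase overlap here and lie higher in all Trf2-/- mice with it.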

How the data were processed

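Total RNA of whole testis from 3 WT and 3 Trf2-/- mice was sequenced. The authors deposited read counts per gene, not normalized, with 1 column per mouse, and these counts were used here. A further 12 columns of normalized values were not used. The submitters' processing notes name CASAVA 1.8.2, TopHat2 2.0.10, Bowtie2 2.1.0, HTSeq 0.5.4p3 and DESeq2 1.0.19, and the build is NCBIM37. The strand setting of the counting and the annotation release are not given in the sources used here, so genes that overlap on opposite strands, as 18 of the 92 genes do, may share reads.

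Counts were filtered with filterByExpr, which kept 16924 genes with 99.9% of the reads, scaled with TMM factors and tested with edgeR 4.0.16 (R 4.3.3), glmQLFit and glmQLFTest, with genotype as the term and all 6 mice. A gene passed at an adjusted p under 0.05. The standard error was derived from the fold change and the F statistic. Pair ratios used RPKM with 0.5 counts added and an exact permutation test. The method was tested on simulated counts in which far fewer genes changed than were called here, so the simulation does not test the scaling. At 3 counts, the limit that a count of 0 allows, the level is 0.105 to 0.190 CPM, which covers counting error only. Mice of a genotype differed by more than sampling noise (chi-square per degree of freedom of 3.52 or more), so no library appeared to be deposited again.

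The alternatives were DESeq2's size factors, scaling by library totals, the Wald test of DESeq2 1.42.0, no filter or a minimum of 10 counts per mouse, a block for the replicate number, the omission of each mouse, an adjusted p of 0.01, a 2-fold change and, for the ratios, 5 counts added. Named genes were the testis isoforms and their partners, the isoforms of other tissues, genes past 2-fold, genes below the filter, and in each group the lowest, the highest and the most abundant, with the most changed or most abundant genes of the other lists. The values of 1 named gene are not reported here. The genes and lists were chosen with earlier results of these data known. Repeated windows were those with more than 1 exact match on either strand in NCBIM37. The lists are of spermatogonia, pachytene spermatocyte, round spermatid, Sertoli cell, Leydig cell, peritubular cell and macrophage markers, and of other mitochondrial genes.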

Additional observations from a re-analysis of the deposited data

How the results depend on the processing

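Of the numbers of respiratory chain genes past the test, 23 lower and 2 higher, the first was within 1.5 times of its value with DESeq2's size factors, DESeq2's Wald test, either filter and each mouse left out (16 to 28), and fell to 13 with scaling by library totals, 13 at an adjusted p of 0.01 and 1 at a 2-fold change. The number higher was 15 with scaling by library totals, 0 at an adjusted p of 0.01, 0 at a 2-fold change, and 1 to 2 with each mouse left out. At a 2-fold change 0 of the 4 testis isoforms were lower, against 3, and with each mouse left out 2 to 3 were lower. The median log2 fold change was 0.0234 with scaling by library totals and ran from -0.0877 to -0.0396 with each mouse left out, the latter without Trf2-/- mouse 3. Scaling by library totals turned the value of Cyct to 0.0346. Among the named genes that did not pass, it also turned those of Sdhb (0.01), Sdha (0.09) and Atp5b (0.06), that of Sdha was also 0.01 without WT mouse 1, and that of Ndufs7 was -0.05 without Trf2-/- mouse 2, -0.03 without WT mouse 2 and -0.0032 with the minimum of 10 counts. The 4 pair ratios kept their direction under every alternative. The cause of these shifts was not tested.

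The replicate numbers did not pair the mice: the deviations of same-numbered mice correlated at -0.08, -0.13 and -0.09, and no mouse correlated best with its own number. With the number as a replicate block 22 genes were lower, all among the 23, and 2 were higher, 3 testis isoforms were lower, and the differences of the pair ratios were the same, with exact sign-flip p values of 0.25 to 0.5.

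The scarce genes Cox4i2, Cox6a2 and Cox8b fell below the filter on low counts and were not tested, so no difference can be read for them.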
